A study of Mus musculus with 10 samples.

Results

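The 10 genes described here are the epithelial-mesenchymal transition factors Snai1, Snai2, Twist1, Twist2, Zeb1, Zeb2 and Prrx1, the mesenchymal genes Vim and Cdh2, and the basal keratin gene Krt14. They were taken by name from a table of 37882 genes, and all 10 were found once. The tumours were grown in the mammary gland of FVB/N mice from MCa-M3C, a mouse mammary tumour line. The treated group (n = 5) received TMA-ARB, a form of the angiotensin receptor blocker valsartan, at a valsartan dose of 40 mg/kg. It was given into a vein every day for 6 days, from a tumour volume of about 100 mm3. The control group (n = 5) carried the same tumours and received the same volume of PBS. The age and sex of the mice are not stated. All tumours come from 1 cell line, and each library holds RNA of the tumour cells together with that of host cells. In such bulk samples fewer cells of a type and less RNA per cell cannot be told apart. Whether the 10 libraries came from 10 animals is not stated, and a p-value here reflects variation among these libraries, part of which may be technical.

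Epithelial-mesenchymal transition is a programme in which epithelial cells give up their junctions and keratins and take on features of mesenchymal cells. Zinc finger proteins of the Snail and Zeb families bind E-boxes in DNA and repress epithelial genes such as Cdh1, which encodes E-cadherin. Twist proteins are helix-loop-helix factors that also bind E-boxes, and Prrx1 is a homeobox factor of mesenchyme. Vim encodes the intermediate filament vimentin and Cdh2 the adhesion protein N-cadherin. Krt14 encodes a keratin of basal and myoepithelial cells in the mammary gland and of basal cells in skin. Fibroblasts, endothelial cells and macrophages of a tumour use several of these genes as well.

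Library totals ran from 12742953 to 16884621 counts, and all 10 genes passed the filter on low counts, which left 14063 genes to test. Values are CPM, counts scaled to a common library size after TMM normalization (a scaling that corrects for differences in RNA make-up), unless a scale per length is named. Counts from mitochondrially encoded genes made up 10.5% ± 9.12 of TMA-ARB libraries and 4.19% ± 2.21 of control libraries (SD, n = 5 each), a difference of 6.31 points (two-sided exact permutation p = 0.143). The share was above 5% in TMA-ARB replicates 8, 9 and 10 and in control replicates 3 and 4, with the highest value, 24.97%, in TMA-ARB replicate 9. Leaving that library out gave a difference of 2.695 points, and leaving out TMA-ARB replicate 6 gave 8.38 points (exact permutation p = 0.0397).

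Start-site windows from RefSeq (GRCm38.p6) are shown for Vim, Twist1 and Snai1, the 3 members of highest level per exon length. Twist1 and Vim were also a pair with correlated levels over the libraries. Windows of 7 of the 10 members were kept for this step, and the other members were not examined here. Each holds 250 bases before and 50 after the annotated start, 5′ to 3′ on the gene's strand. Capitals mark any match to CANNTG (the E-box core, the same on both strands), TATAAA or GGGCGG, the last 2 on either strand.
Twist1 chr12:33957421-33957720, plus strand: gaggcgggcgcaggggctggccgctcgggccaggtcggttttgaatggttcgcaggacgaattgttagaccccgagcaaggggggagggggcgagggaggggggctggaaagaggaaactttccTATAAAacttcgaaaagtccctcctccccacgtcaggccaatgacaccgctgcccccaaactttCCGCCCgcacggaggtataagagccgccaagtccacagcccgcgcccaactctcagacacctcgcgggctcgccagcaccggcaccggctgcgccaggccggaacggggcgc
Vim chr2:13574061-13574360, plus strand: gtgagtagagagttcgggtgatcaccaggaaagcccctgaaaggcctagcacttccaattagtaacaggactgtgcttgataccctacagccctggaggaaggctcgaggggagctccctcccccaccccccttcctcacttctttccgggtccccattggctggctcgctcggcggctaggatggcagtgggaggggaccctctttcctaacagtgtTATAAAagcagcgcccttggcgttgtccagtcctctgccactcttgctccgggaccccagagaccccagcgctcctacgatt
Snai1 chr2:167537945-167538244, plus strand: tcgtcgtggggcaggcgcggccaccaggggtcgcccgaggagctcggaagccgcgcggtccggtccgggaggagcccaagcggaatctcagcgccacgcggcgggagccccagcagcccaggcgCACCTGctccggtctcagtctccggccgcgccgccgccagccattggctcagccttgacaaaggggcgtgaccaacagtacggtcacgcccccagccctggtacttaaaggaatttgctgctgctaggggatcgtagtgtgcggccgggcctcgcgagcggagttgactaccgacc
The Snai1 window holds 1 E-box core, at -126 from the start, and its letters are those of CAGGTG on the other strand, the form that Snail and Zeb proteins are known to bind. CANNTG is found in 72.3% of the 32851 windows of all genes and CAGGTG, on either strand, in 20.2%. Neither the Twist1 nor the Vim window holds CANNTG. The Vim window is set on a RefSeq start that lies 384 bases inside the GENCODE gene. Vim has TATAAA at -32 and Twist1 has it at -126, against 13.6% of windows with such a match. Twist1 also has GGGCGG on the other strand, at -62, against 35.7% of windows. GC content was 66.0% for Twist1, 59.3% for Vim and 70.0% for Snai1, against a median of 52.7% over all windows. The ratio of observed to expected CpG was 0.827, 0.421 and 0.925 for these genes, against a median of 0.384. These matches describe letters in the windows and no binding was measured.

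The tumours carried high Vim, intermediate levels of most transition factors and very low Krt14. Per kilobase of exon, mean levels over the 10 libraries were 2386 ± 706 CPM per kb for Vim (SD, n = 10), which was above the other members in every library. Next came Twist1 at 37.4 ± 10.3, Snai1 at 29.1 ± 9.90, Cdh2 at 18.6 ± 5.25, Zeb1 at 13.9 ± 2.67, Snai2 at 13.0 ± 3.44 and Prrx1 at 10.7 ± 1.69 CPM per kb. Neighbours in this middle range did not keep their order: Twist1 exceeded Snai1 in 7 of 10 libraries, Snai1 exceeded Cdh2 in 8, Cdh2 exceeded Zeb1 in 9, Zeb1 exceeded Snai2 in 6 and Snai2 exceeded Prrx1 in 7. Zeb2 followed at 4.33 ± 0.823 CPM per kb, below Prrx1 in all 10 libraries. Krt14, at 0.738 ± 0.930, and Twist2, at 0.413 ± 0.459 CPM per kb, were lowest, and Krt14 exceeded Twist2 in 6 of 10 libraries. With the longest transcript as the length in place of all exons, Prrx1 moved to place 5, ahead of Zeb1 and Snai2, and the others kept their order among themselves.

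**Figure D1:**
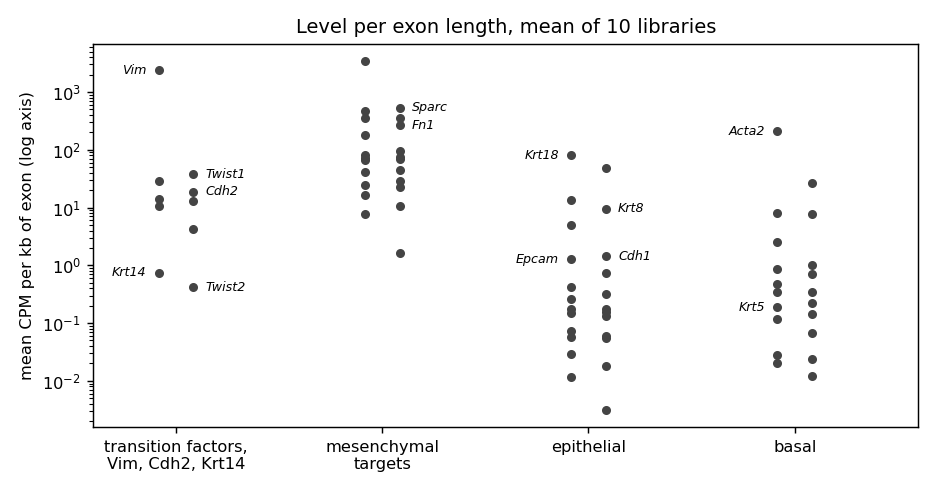
Mean level over the 10 libraries in CPM per kilobase of exon, on a log axis, with a point for each gene, spread sideways only to keep points apart, and some genes named beside their point. The columns hold the 10 genes described, 22 known mesenchymal genes, 24 epithelial genes and 20 basal genes. Vim stands at 2386 CPM per kb, Krt14 at 0.738 and Cdh1 at 1.43, and the median is 70.1 for mesenchymal targets, 0.177 for epithelial genes and 0.350 for basal genes.

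The label of a mammary carcinoma line was checked against epithelial markers, most of which were at or near the limit of detection. Of 24 epithelial genes 15 did not pass the filter on low counts, among them those for the claudins Cldn3, Cldn4 and Cldn7 and for the splicing factors Esrp1 and Esrp2. Cdh1 averaged 5.64 ± 4.70 CPM in TMA-ARB tumours and 7.04 ± 2.54 in controls (SD, n = 5 each). Epcam, an epithelial adhesion gene, averaged 3.31 ± 4.95 CPM in TMA-ARB tumours and 1.96 ± 0.991 in controls. The simple keratin gene Krt18 was present at 131 ± 51.3 CPM in TMA-ARB tumours and 101 ± 30.4 in controls. Its partner Krt8 measured 25.9 ± 18.4 CPM in TMA-ARB tumours and 11.1 ± 3.86 in controls. TMA-ARB replicate 6 held the highest values of Cdh1 (13.9 CPM), Epcam (12.1 CPM) and Krt8 (56.8 CPM). By contrast all 22 mesenchymal targets passed the filter, and their median level per exon length was 70.1 CPM per kb against 0.177 for the epithelial genes.

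None of the 10 genes differed between TMA-ARB and control tumours in edgeR's quasi-likelihood test with Benjamini-Hochberg adjustment over all genes. EdgeR called 0 of 10 members, against 0% of all 14063 genes. At an unadjusted p under 0.05 stood 1 member, Krt14, which was higher under TMA-ARB, against 3.25% of all genes (1.59% higher and 1.66% lower). DESeq2 called 0 of 10 members, against 0.00837% of the genes it tested, and limma-voom with sample weights called 0 of 10, against 0%. At an unadjusted p under 0.05 each of these also had 1 of 10 members, against 3.46% of all genes in DESeq2 and 9.88% in limma-voom. The 457 genes behind edgeR's 3.25% became 1219 when TMA-ARB replicate 6 was left out, 689 for TMA-ARB replicate 8, 302 for control replicate 1, and 224 for either control replicate 2 or TMA-ARB replicate 9. The adjusted p was 0.997 for each of the 10. Fold changes were above 1 for 7 and below 1 for 3 of the members, against 52.8% above 1 over all genes, and the median log2 fold change was 0.10 over the members and 0.02 over all genes. The ranges of the groups overlapped for all 10, so 0 members stood apart, against 0.526% of all genes (0.164% higher and 0.363% lower). In a simulation of this comparison over 13729 genes the test recovered 6% of the genes given a 1.5-fold change, 26% of those given a 2-fold, 70% of those given a 3-fold and 74% of those given a 4-fold change.

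**Figure D2:**
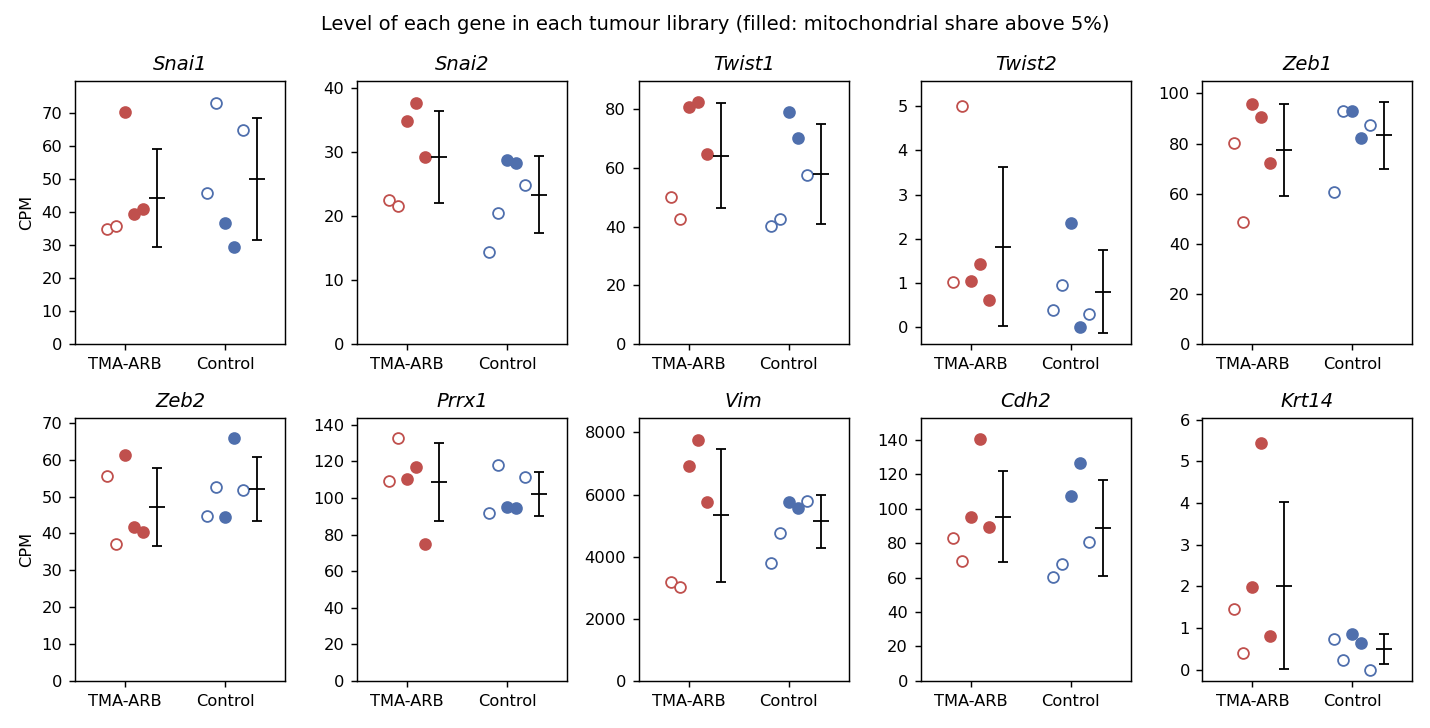
CPM of each gene in each library, TMA-ARB on the left and control on the right of each panel, with the group mean and SD (n = 5) as a bar beside the points. Filled points are libraries with a mitochondrial share above 5%. The groups overlap in every panel, and the filled points lie above the open ones for Snai2, Twist1 and Cdh2.

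The Snail genes differed from each other in which libraries were high. Snai1, on chromosome 2 (167538195 to 167542814, plus strand, GRCm38; 3 exons), encodes Snail, which represses E-cadherin. It measured 34.8, 35.7, 70.2, 39.6 and 40.9 CPM in TMA-ARB replicates 6 to 10, against 45.7, 73.0, 36.7, 29.5 and 64.8 CPM in control replicates 1 to 5. TMA-ARB replicate 8 and control replicates 2 and 5 were high, and every TMA-ARB value lay within the control range. Its log2 fold change was -0.18 ± 0.27 (SE), with a 95% interval of 0.591- to 1.33-fold. Without control replicate 2 it was -0.0004, and without TMA-ARB replicate 8 it was -0.40. Among libraries below a 5% mitochondrial share it had a log2 fold change of -0.80 ± 0.30 (edgeR adjusted p = 0.507) and among those above it 0.60 ± 0.29 (adjusted p = 0.710). The direction thus differed between the sides, neither value passed, and the adjusted p over all alternatives ran from 0.507 to 1.

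Snai2, which encodes Slug, a factor of basal mammary cells and neural crest, lies on chromosome 16 (14705852 to 14709385, plus strand; 3 exons). It measured 22.6, 21.6, 34.9, 37.6 and 29.3 CPM in TMA-ARB replicates 6 to 10, against 14.4, 20.5, 28.7, 28.3 and 24.9 CPM in control replicates 1 to 5. TMA-ARB replicates 8, 9 and 10 exceeded every control, while replicates 6 and 7 lay inside the control range. For Snai2 the log2 fold change was 0.32 ± 0.23, and the interval ran from 0.884- to 1.77-fold. Leaving out 1 library gave values from 0.19 (control replicate 1 left out) to 0.42 (TMA-ARB replicate 7 left out). It was 0.043 ± 0.18 once the log2 mitochondrial share entered the fit. Snai3, the third Snail gene, held 10 counts, all in control replicate 2.

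Twist1 and Twist2 encode closely related helix-loop-helix factors, but their levels were far apart. Twist1, on chromosome 12 (33957671 to 33959829, plus strand; 2 exons), measured 49.96, 42.6, 80.8, 82.3 and 64.5 CPM in TMA-ARB replicates 6 to 10, against 40.1, 42.5, 79.1, 70.0 and 57.6 CPM in control replicates 1 to 5. Control replicate 1 was lowest and TMA-ARB replicate 9 highest, and each group held both low and high libraries. Its log2 fold change was 0.15 ± 0.24, with an interval of 0.773- to 1.58-fold. That value was 0.038 without control replicate 1 and 0.28 without control replicate 3. It was -0.16 ± 0.17 once the log2 mitochondrial share entered the fit.

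Twist2, on chromosome 1 (91801461 to 91848028, plus strand), held 130 counts in TMA-ARB libraries and 64 in controls. It measured 1.03, 5.00, 1.03, 1.44 and 0.608 CPM in TMA-ARB replicates 6 to 10, against 0.394, 0.954, 2.35, 0 and 0.303 CPM in control replicates 1 to 5. The count of 0 in control replicate 4 allows up to 3 counts, or 0.215 CPM, by counting error only. TMA-ARB replicate 7 was the only library above 2.35 CPM, and the log2 fold change of 1.18 ± 0.89 became 0.35 without it. Without control replicate 3 it was 2.10, and the interval with all libraries ran from 0.605- to 8.44-fold. Among libraries below a 5% mitochondrial share it was 2.41 ± 0.80 (edgeR adjusted p = 0.450) and among those above -0.23 ± 1.41, and over the alternatives the adjusted p ran from 0.450 to 1. An antisense gene, Gm29100, shares 1477 exon bases with Twist2 in the annotation, and the strand setting of the counting is not given in the sources used here, so reads of the pair cannot be told apart.

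The Zeb genes were the steadiest of the E-box factors. Zeb1, on chromosome 18 (5591860 to 5775467, plus strand; 8 exons), encodes a repressor of E-cadherin and of the miR-200 family. It measured 80.2, 48.9, 95.9, 90.5 and 72.1 CPM in TMA-ARB replicates 6 to 10, against 60.7, 92.9, 93.1, 82.4 and 87.2 CPM in control replicates 1 to 5. TMA-ARB replicate 7 and control replicate 1 were low, and the other 8 libraries lay between 72.1 and 95.9 CPM. Zeb1 had a log2 fold change of -0.10 ± 0.20, an interval of 0.692- to 1.25-fold, and of 0.029 without TMA-ARB replicate 7.

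Zeb2, on chromosome 2 (44983632 to 45117395, minus strand; 11 exons), encodes a close relative that macrophages also use. It measured 55.6, 37.1, 61.2, 41.7 and 40.5 CPM in TMA-ARB replicates 6 to 10, against 44.8, 52.7, 44.5, 65.9 and 51.8 CPM in control replicates 1 to 5. TMA-ARB replicates 7, 9 and 10 lay below every control, and replicates 6 and 8 lay within the control range. Zeb2 had a log2 fold change of -0.14 ± 0.19, with an interval of 0.687- to 1.20-fold. Leaving out 1 library gave values from -0.24, without TMA-ARB replicate 8, to -0.032, without control replicate 4. The antisense gene Zeb2os, which shares 359 exon bases with Zeb2, averaged 5.29 CPM over the 10 libraries. Summed macrophage markers (12 of 12 measured) ran from 889 to 5326 CPM in TMA-ARB libraries and from 1884 to 4501 in controls. The largest part was Lyz2, at a mean of 1495 CPM over the 10 libraries. The part of these markers in Zeb2 was not tested.

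Prrx1, on chromosome 1 (163245119 to 163313710, minus strand), varied least, with a coefficient of variation of 15.7% over the 10 libraries against a median of 29.9% over all genes tested. It measured 109, 133, 110, 117 and 74.7 CPM in TMA-ARB replicates 6 to 10, against 91.9, 118, 95.1, 94.3 and 112 CPM in control replicates 1 to 5. TMA-ARB held both the highest value, in replicate 7, and the lowest, in replicate 10. Its log2 fold change was 0.09 ± 0.18, with an interval of 0.819- to 1.38-fold. Leaving out 1 library gave values from 0.013, without TMA-ARB replicate 7, to 0.21, without TMA-ARB replicate 10. It was -0.14 ± 0.17 in limma-voom with sample weights. Prrx2, its closest relative, averaged 58.7 ± 17.5 CPM in TMA-ARB tumours and 76.9 ± 9.23 in controls (log2 fold change -0.39 ± 0.21, not passing; edgeR adjusted p = 0.997).

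**Figure D3:**
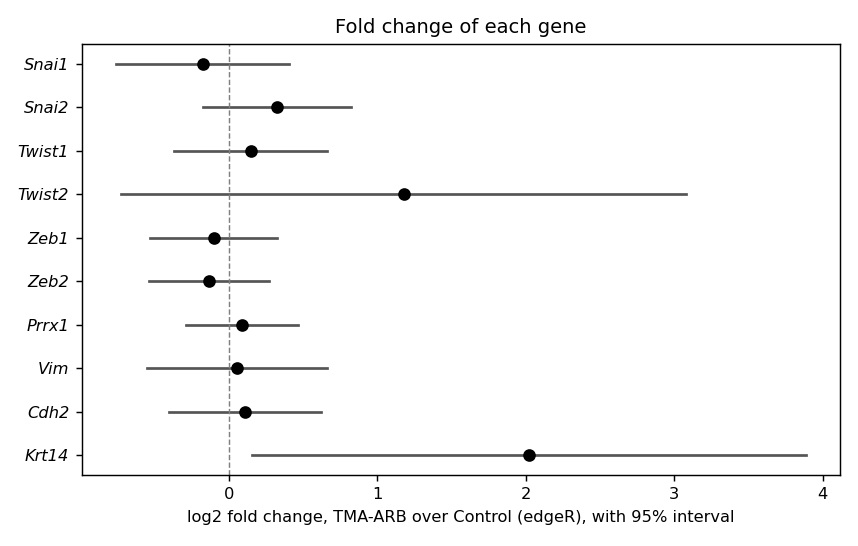
Log2 fold change of each gene, TMA-ARB over control, from edgeR (points) with its 95% interval (lines). The intervals of Snai1, Snai2, Twist1, Zeb1, Zeb2, Prrx1, Vim and Cdh2 lie within -0.76 to 0.82 and include 0. Those of Twist2 (-0.73 to 3.08) and Krt14 (0.16 to 3.89) are far wider.

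Vim had a mean level at percentile 99.9 of the genes tested, and held 756876 counts in all. On chromosome 2 (13573927 to 13582826, plus strand; 9 exons), it measured 3172, 3037, 6933, 7757 and 5744 CPM in TMA-ARB replicates 6 to 10, against 3793, 4767, 5765, 5569 and 5783 CPM in control replicates 1 to 5. The treated libraries were spread on both sides of the controls: replicates 6 and 7 lay below every control and replicates 8 and 9 above every control. The means were 5328 ± 2153 CPM under TMA-ARB and 5135 ± 858 in controls (SD, n = 5 each). Between groups Vim differed by 0.05 ± 0.28 on the log2 scale, with an interval of 0.682- to 1.58-fold, and leaving out TMA-ARB replicate 9 gave -0.11 and leaving out TMA-ARB replicate 7 gave 0.20. Once the log2 mitochondrial share entered the fit it was -0.41 ± 0.19 (unadjusted p = 0.0448, edgeR adjusted p = 0.886), and over the alternatives the adjusted p ran from 0.711 to 1. Among libraries below a 5% share it was -0.62 ± 0.37 and among those above 0.26 ± 0.25.

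Cdh2, on chromosome 18 (16588877 to 16809246, minus strand; 16 exons), measured 82.9, 69.9, 94.99, 140.3 and 89.6 CPM in TMA-ARB replicates 6 to 10, against 60.5, 68.0, 108, 127 and 80.5 CPM in control replicates 1 to 5. TMA-ARB replicate 9 was highest and control replicate 1 lowest. For Cdh2 the log2 fold change was 0.11 ± 0.24, with an interval of 0.754- to 1.54-fold. It was -0.062 without TMA-ARB replicate 9, 0.27 without control replicate 4 and -0.17 ± 0.17 once the log2 mitochondrial share entered the fit.

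Krt14 was low in every tumour and had the largest fitted fold change of the 10. On chromosome 11 (100203162 to 100207548, minus strand; 8 exons), it held 24, 6, 27, 53 and 12 counts in TMA-ARB replicates 6 to 10, against 11, 4, 13, 9 and 0 counts in control replicates 1 to 5. In CPM these were 1.45, 0.395, 1.99, 5.43 and 0.811 in TMA-ARB libraries, against 0.723, 0.224, 0.850, 0.646 and 0 in controls. TMA-ARB replicates 6, 8 and 9 exceeded every control, and replicates 7 and 10 lay inside the control range. The log2 fold change was 2.02 ± 0.87 (unadjusted p = 0.0357, edgeR adjusted p = 0.997). TMA-ARB replicate 9, the library with the highest mitochondrial share, held the highest value, and without it the fold change was 1.26 ± 0.84 (unadjusted p = 0.160). Over all alternatives the log2 fold change of Krt14 ran from 1.26 to 2.68 and its adjusted p from 0.497 to 1. The 0 counts in control replicate 5 allow up to 3 counts, or 0.182 CPM.

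Other basal keratin genes were sparser than Krt14 in their mean over the 10 libraries, and only Krt16 among them passed the filter. Krt14 averaged 1.25 CPM over all libraries, against 0.323 for Krt6a, 0.183 for Krt17 and 0.0632 for Krt6b. Krt16 averaged 0.911 ± 0.670 CPM in TMA-ARB tumours and 0.591 ± 0.535 in controls, and Krt15 0.238 ± 0.498 CPM in TMA-ARB tumours and 0.516 ± 0.440 in controls (SD, n = 5 each). In controls both means were above that of Krt14, 0.489 ± 0.360 CPM, and under TMA-ARB both were below its mean of 2.02 ± 2.00 CPM. Krt5, which encodes the usual partner of keratin 14, held 61 counts in 5 of the 10 libraries, at 2.18, 0, 0.369, 0.922 and 0 CPM in TMA-ARB replicates 6 to 10, against 0.526, 0.168, 0, 0 and 0 CPM in control replicates 1 to 5. Krt5 was thus highest in TMA-ARB replicate 6 and Krt14 in replicate 9. Trp63, the transcription factor of basal cells, measured 2.50 ± 0.988 CPM in TMA-ARB tumours and 3.37 ± 0.963 in controls. Of 20 basal genes 10 passed the filter on low counts. EdgeR called 0 of these, with 0 at an unadjusted p under 0.05 and a median log2 fold change of -0.12, and DESeq2 and limma-voom called 0 as well. Those of smallest p were the integrin gene Itga6 (0.21 ± 0.18), Trp63 (-0.43 ± 0.40), Egfr (-0.17 ± 0.22) and Itgb4 (-0.17 ± 0.22). Of 9 skin keratinocyte markers those other than Krt10 and Trp63 were under the filter, and Dsg1a and Lce1a1 had 0 counts in every library. Their summed level ran from 10.5 to 27.9 CPM in TMA-ARB libraries and from 10.5 to 14.8 in controls, and most came from Krt10. Krt10 was highest in TMA-ARB replicate 9, at 24.1 CPM, where Krt14 was also highest. Krt1 (0.922 CPM) and Ivl (0.51 CPM) were highest there too, but Krtdap in TMA-ARB replicate 10 and Lor in a control library. Of the basal genes Krt17 (1.435 CPM), Lgals7 (3.895 CPM) and Col17a1 (4.305 CPM) were highest in TMA-ARB replicate 9. So were Dsc3 (1.23 CPM), Krt15 (1.13 CPM), Krt6b and Dsg3 (0.41 CPM each). Of the genes highest there beside Krt14, among these lists, only Krt10 and Col17a1 passed the filter on low counts. Krt6a (1.27 CPM) and Sfn (2.665 CPM), like Krt5, were highest in TMA-ARB replicate 6. Krt16 was highest in TMA-ARB replicate 10 and Trp63 in control replicate 2. The part of these genes in Krt14 was not tested.

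Across the 10 libraries Snai2, Twist1 and Cdh2 were high and low together, and Vim followed Twist1. Of the 45 pairs of members, 4 had a Pearson correlation of log2 CPM with a Benjamini-Hochberg adjusted permutation p under 0.05 and 9 an unadjusted p under 0.05. No such share over pairs of all genes is given here, so these counts are not read as particular to the members. The strongest pair was Snai2 with Twist1 (r = 0.92, Spearman rho = 0.96, n = 10). Its permutation p of 1e-05 is the smallest that 100000 permutations can give, and the adjusted value was 0.00045 (0.0027 for rho). Twist1 with Cdh2 reached r = 0.89 (rho = 0.94, permutation p = 0.00067 and 0.00025, adjusted p = 0.0151 and 0.00562). For Snai2 with Cdh2 r was 0.85 (rho = 0.88, permutation p = 0.00138 and 0.00167, adjusted p = 0.0207 and 0.025), and for Twist1 with Vim it was 0.84 (rho = 0.82, permutation p = 0.00321 and 0.00578, adjusted p = 0.0361 and 0.0553). Without the 2 libraries farthest from the median of the first gene these were 0.95, 0.81, 0.71 and 0.91, and with group means removed 0.95, 0.89, 0.88 and 0.86.

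The 2 other pairs among these 4 genes did not pass: Snai2 with Vim had r = 0.78 (rho = 0.82, permutation p = 0.00761 and 0.00614, adjusted p = 0.0685 and 0.0553) and Vim with Cdh2 r = 0.70 (rho = 0.65, permutation p = 0.0248 and 0.0483, adjusted p = 0.159 and 0.243).

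No pair within a gene family passed. Snai1 with Snai2 gave r = -0.06 (rho = -0.07, permutation p = 0.881 and 0.865, adjusted p = 0.944 and 0.985), and Twist1 with Twist2 r = -0.09 (rho = 0.25, permutation p = 0.814 and 0.489, adjusted p = 0.944 and 0.953). Zeb1 with Zeb2 gave r = 0.57 (rho = 0.43, permutation p = 0.0817 and 0.219, adjusted p = 0.342 and 0.554), which was 0.21 without the 2 libraries farthest from the Zeb1 median. The only negative pair with an unadjusted p under 0.05 for r was Twist2 with Zeb2 (r = -0.64, rho = -0.50, permutation p = 0.0432 and 0.143, adjusted p = 0.216 and 0.462). It was -0.05 without the 2 libraries farthest from the Twist2 median, so it rests on those libraries, and Twist2 counts are sparse.

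**Figure D4:**
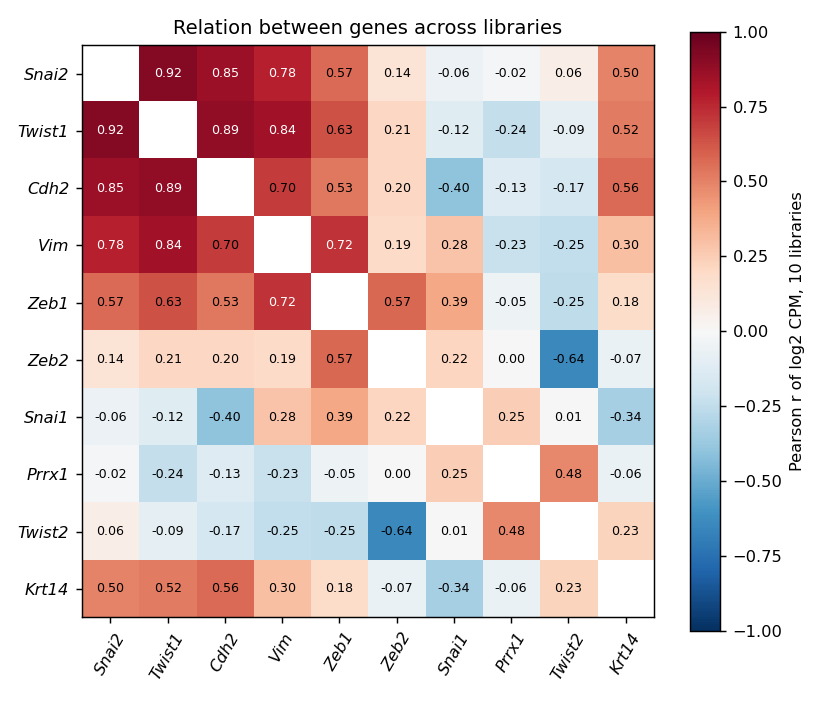
Pearson correlation of log2 CPM between each pair of the 10 genes over the 10 libraries, from -1 (blue) to 1 (red). Snai2, Twist1, Cdh2 and Vim have values from 0.70 to 0.92 with each other, of which 4 of 6 passed, while Snai1 lies between -0.40 and 0.39 with every other gene.

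The same genes followed the mitochondrial share. Against the log2 share, r was 0.89 for Snai2 (rho = 0.95, permutation p = 0.00074 and 0.00011, adjusted over 10 genes 0.0074 and 0.0011) and 0.87 for Twist1 (rho = 0.89, permutation p = 0.00207 and 0.00145, adjusted 0.0103 and 0.00725). For Cdh2 r was 0.82 (rho = 0.84, permutation p = 0.00432 and 0.00392, adjusted 0.0108 and 0.0131) and for Vim 0.81 (rho = 0.73, permutation p = 0.00429 and 0.0207, adjusted 0.0108 and 0.0517). Without the 2 libraries farthest from the median share these were 0.88, 0.93, 0.79 and 0.76, and with group means removed 0.86, 0.89, 0.84 and 0.92. For the other 6 members r ran from -0.23 to 0.62, and none had an adjusted p under 0.05. Of 14032 nuclear genes tested, 6.55% had an r above 0.8 with the share and 6.69% one below -0.8. The 4 members above that value are thus among many such genes.

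Every library above a 5% share exceeded every library below it for 3 of the 10 members, against 5.36% of all genes tested, and was below every such library for 0 members, against 4.79%. Twist1 ran from 64.5 to 82.3 CPM in the 5 libraries above and from 40.1 to 57.6 in the 5 below. Snai2 ran from 28.3 to 37.6 CPM above and from 14.4 to 24.9 below, and Cdh2 from 89.6 to 140.3 CPM above and from 60.5 to 82.9 below. Each side holds 5 libraries, too few for a correlation within a side. With the mean of each side removed, r was 0.75 for Snai2 with Twist1, 0.59 for Twist1 with Cdh2, 0.55 for Snai2 with Cdh2, 0.54 for Twist1 with Vim, 0.42 for Snai2 with Vim and 0.20 for Vim with Cdh2. Some pairs beyond these 6 also had high values on that scale. There r was 0.76 for Snai1 with Vim, 0.68 for Snai2 with Prrx1 and 0.66 for Zeb1 with Vim. Without that step these were 0.28, -0.02 and 0.72. Others were negative, down to -0.64 for Twist2 with Zeb2, and 34 of all 45 pairs were above 0. These values are descriptions and were not tested. Whether the share itself has a part in these levels was not tested.

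**Figure D5:**
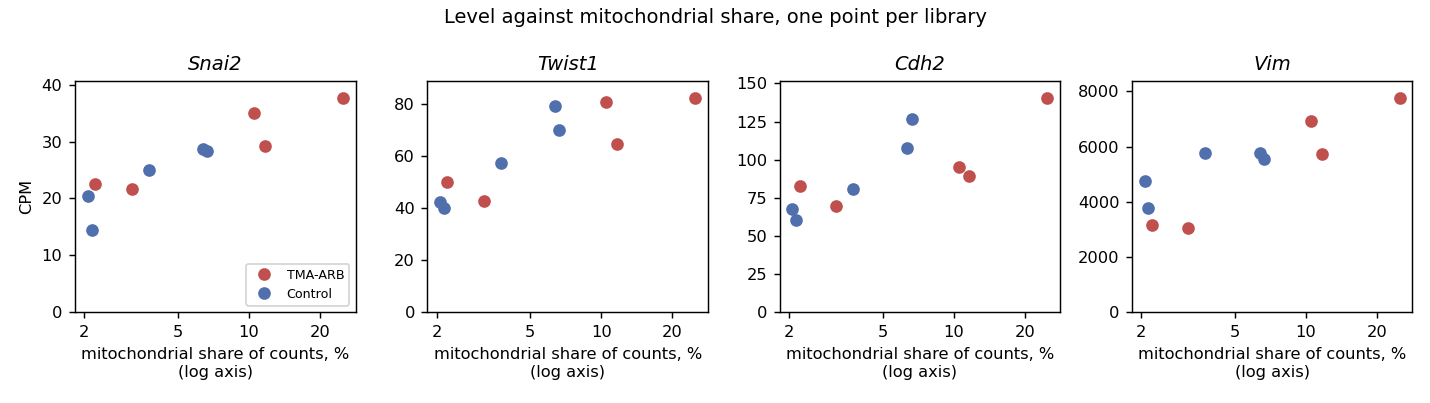
CPM of Snai2, Twist1, Cdh2 and Vim (linear axes from 0) against the mitochondrial share of counts (log axis), with a point per library coloured by group. Levels rise with the share, which runs from 2.07% to 24.97%, with r between 0.81 and 0.89 over all libraries. For Vim the groups do not share 1 course: TMA-ARB replicates 6 and 7 lie below every control.

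Genes that act with or upstream of the members gave no call either: edgeR, DESeq2 and limma-voom each called 0 genes of every list below. Over all genes, 47.2% had a negative log2 fold change, and 3.25% in edgeR, 3.46% in DESeq2 and 9.88% in limma-voom had an unadjusted p under 0.05. Of 22 partners and regulators 21 were tested, with a median log2 fold change of 0.05 and 1 at an unadjusted p under 0.05 in edgeR (1 in DESeq2, 2 in limma-voom). That gene was Id2, an inhibitor of helix-loop-helix factors (-0.70 ± 0.28), followed by Id3 (-0.35 ± 0.17), the Snail corepressor gene Ajuba (0.35 ± 0.19) and Ctbp2 (0.28 ± 0.19). Tcf3, which encodes the E-protein partner of Twist factors, averaged 160.0 ± 56.6 CPM in TMA-ARB tumours and 145 ± 35.4 in controls. The next list held 20 genes of signalling linked to the transition, not all of which induce it. Of these 14 had a negative log2 fold change and 5 an unadjusted p under 0.05 in edgeR (5 in DESeq2, 5 in limma-voom), with a median of -0.23. They were led by Tgfb3 (-0.75 ± 0.22), Tgfb1 (-0.72 ± 0.28), Bmp7 (-1.66 ± 0.65) and Wnt5a (-0.41 ± 0.17). The other of these 5 was Smad3 (-0.51 ± 0.21). It was the only gene of the list whose groups did not overlap, against 0.526% of all genes. Of 18 other transition factors 13 were tested, with a median of 0.07 and 1 at an unadjusted p under 0.05 (1 in DESeq2, 2 in limma-voom). That was the homeobox gene Msx1 (1.91 ± 0.51), also the only gene of its list whose groups did not overlap. Next were Prrx2, Hmga2 (0.29 ± 0.18) and Ets1 (-0.21 ± 0.22).

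No single gene listed as a mesenchymal or epithelial target, or as a relative of Cdh2 or Vim, passed the test. The direction of the lists was not tested. Among 22 mesenchymal targets 16 had negative and 6 positive log2 fold changes, with a median of -0.19 and 1 at an unadjusted p under 0.05 in edgeR (3 in DESeq2, 3 in limma-voom). Those of smallest p were Mmp14 (-0.56 ± 0.25), Col1a2 (0.59 ± 0.28), Mmp2 (-0.80 ± 0.42) and Col1a1 (-0.43 ± 0.24). The 9 epithelial genes tested had a median of 0.38, with 6 positive and 1 at an unadjusted p under 0.05 in each tool. They were led by Krt8 (1.23 ± 0.42), Krt7 (1.17 ± 0.69), Krt19 (2.03 ± 1.42) and Krt18 (0.38 ± 0.28), and Krt19 stood at 51.6 CPM in TMA-ARB replicate 6 and at 9.61 or less in every other library. Beside Cdh2, 4 of 11 other cadherin genes were tested (median -0.34, 0 at an unadjusted p under 0.05 in edgeR, 1 in DESeq2 and 1 in limma-voom): Cdh5 of endothelium (-0.40 ± 0.24), Cdh11 of mesenchyme (0.65 ± 0.56), Cdh13 (-0.36 ± 0.33) and Cdh1 (-0.32 ± 0.46). Cdh6, Cdh8 and Cdh9 had 0 counts in every library. Beside Vim, 9 of 11 intermediate filament or linked genes were tested (median -0.14, 1 at an unadjusted p under 0.05 in edgeR, 1 in DESeq2 and 0 in limma-voom). The muscle filament gene Des had -2.83 ± 1.16, with 30.6 CPM in control replicate 1, and it was followed by Prph (-1.34 ± 0.74), Synm (-0.48 ± 0.52) and Lmnb2 (0.21 ± 0.25).

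Markers of host cell types that use members of the set were measured alongside. Summed fibroblast markers (12 in the table) ran from 5129 to 5878 CPM in TMA-ARB libraries and from 4969 to 6252 in controls. Most of this came from Col1a1 (mean of 2092 CPM over all libraries), Dcn (1729 CPM) and Col3a1 (1007 CPM). The collagen genes of this list are also among the mesenchymal targets. Of 10 fibroblast genes tested 5 had a negative log2 fold change and 0 an unadjusted p under 0.05 in edgeR (2 in DESeq2, 1 in limma-voom).

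Endothelial markers (10) ran from 289 to 430 CPM in TMA-ARB libraries and from 368 to 569 in controls. Of the 10 tested 8 had a negative log2 fold change (median -0.28), and Flt1 (-0.56 ± 0.22) and Plvap (-0.51 ± 0.21), both genes of blood vessels, had an unadjusted p under 0.05. Mural markers (10) ran from 390.0 to 938 CPM in TMA-ARB libraries and from 481 to 979 in controls. Of the 9 tested 7 were negative (median -0.21), and 3 had an unadjusted p under 0.05 in edgeR (3 in DESeq2, 1 in limma-voom). In edgeR these were Kcnj8 (-1.08 ± 0.38), Pdgfrb (-0.58 ± 0.26) and Des. T cell markers (10) ran from 9.68 to 22.1 CPM in TMA-ARB libraries and from 15.1 to 27.5 in controls. All 10 were negative (median -0.61), with 0 at an unadjusted p under 0.05 in edgeR, 1 in DESeq2 and 1 in limma-voom. Of the 12 macrophage markers 10 were negative (median -0.40), with 0 at an unadjusted p under 0.05 in edgeR. The counts for the other tools leave out Adgre1: 0 in DESeq2 and 6 in limma-voom. Muscle markers (10) ran from 59.9 to 280.2 CPM under TMA-ARB and from 82.7 to 217 in controls, mostly from Acta1, which averaged 115 ± 93.4 CPM in TMA-ARB tumours and 123 ± 43.8 in controls. All 5 muscle genes tested were negative (median -1.61), and 2 had an unadjusted p under 0.05 in edgeR (7 in DESeq2, which used no such filter, and 1 in limma-voom), Mylpf (-2.43 ± 1.05) and Myh1 (-1.61 ± 0.73). The muscle creatine kinase gene Ckm averaged 0.448 ± 0.457 CPM in TMA-ARB tumours and 6.81 ± 10.7 in controls, with 25.1 CPM in control replicate 1 and 7.78 in control replicate 3, the libraries that were also highest for Mylpf, Myh1 and Des. For adipocyte markers (10) the ranges were 44.3 to 71.2 CPM under TMA-ARB and 45.8 to 74.9 in controls. None of these fibroblast, mural, endothelial, T cell, muscle or adipocyte markers had 0 counts in every library. Their part in the levels of Vim, Zeb1, Zeb2, Prrx1 and the Twist genes was not tested.

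The genes with a pattern over the 10 libraries most like that of each member were found among 10858 or 10859 genes with a mean of at least 5 CPM, by Pearson correlation of log2 CPM. They were the highest of that many and are given as a description only. For Twist1 they were Tcf4 (r = 0.97), C430049B03Rik and Foxp1, for Vim Sox9 (0.98), Hdac4 and Pcmtd1, and for Cdh2 Tpbg (0.96), Cep97 and B4galt6. Snai2 was most like Bclaf1 (0.96), Pcbp1 and Zfp1, and Snai1 most like Hs1bp3 (0.96), Nedd9 and B3gnt9. Zeb1 was nearest to Zc3hav1 (0.96), Scaf11 and Ssh1, and Zeb2 to Diap2 (0.89), Asb7 and Atxn1. Prrx1 was nearest to Ttc8 (0.94), Kpna3 and Ctdspl2. The 2 sparse genes had lower values: Twist2 reached 0.86 with Mgst1, followed by Piga and N6amt1, and Krt14 reached 0.91 with Fst, followed by Glyr1 and Gm14149.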

How the data were processed

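RNA was measured in 10 tumour libraries, and groups were taken from sample titles. The authors deposited estimated counts per Ensembl gene. Per the submitters' processing notes, the tool was Salmon and the build mm10; version, annotation, strand setting and rounding are not given in the sources used here. Per the labels, poly-A RNA went into strand-marking libraries. All values were already whole, and 0 columns were left unmatched. No 2 libraries were identical.

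EdgeR 4.0.16 in R 4.3.3 fitted all genes (quasi-likelihood F test, TMM, filterByExpr, robust, Benjamini-Hochberg at 0.05). SE is the absolute log2 fold change over the square root of F. Log2 CPM used a prior count of 2. Alternatives were DESeq2 1.42.0, limma-voom 3.58.1 with sample weights, other scaling and filters, mitochondrial share terms and sides, and each library left out. The edgeR step was tested on simulated data, with 3 false calls. Coordinates and exon lengths come from GENCODE M21. A search of the members' longest transcripts with blastn 2.17.0 (at least 90% identity over 100 bases) found 1 similar transcript, Gm39465 for Snai2. Adgre1 was matched by its Ensembl identifier, and the keratinocyte gene Flg was not analysed here. Intervals of fold changes are 95% model intervals, and floors of 3 counts cover counting error only. Members and lists were chosen with earlier results of these data known. Named genes were all members, up to 4 genes of smallest p per list, relatives and known targets, and the 3 of most similar pattern.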

Additional observations from a re-analysis of the deposited data

Results flagged for a closer look

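In 22 groups of 5 libraries (each member in each group, and the mitochondrial share), 2 held a library that stood apart from the other 4, with a gap of over 0.71 of the group's range. Chance alone gives such a gap in about 1 of 20 groups. Snai1 was at 70.2 CPM in TMA-ARB replicate 8, against 34.8 to 40.9 CPM in the other treated libraries. Twist2 was at 5.00 CPM in TMA-ARB replicate 7, against 0.608 to 1.44 CPM in the other treated libraries.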

How the results depend on the processing

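No paired analysis was possible because the groups share no replicate numbers. All members passed the filter, so the test fixed for members below it gave no value. EdgeR's count of 0 called genes (457 at an unadjusted p under 0.05) stayed at 0 with each library left out (range 0 to 0, with 224 to 1219 at an unadjusted p under 0.05), while DESeq2 called 2 (Amd2 and Hist1h2br) and the libraries above a 5% mitochondrial share 4 (Aqp1, Rcn3, Lrrc15 and Pira2, named after their values were seen). None of the 10 members was called under any alternative, and 192 of 208 values kept their direction. Snai2, Zeb2 and Krt14 kept it throughout. The log2 fold change reversed for Prrx1 with sample weights (-0.14), and, once the log2 mitochondrial share entered the fit, for Twist1 (-0.16), Vim (-0.41) and Cdh2 (-0.17). It also reversed for Vim with a term for the side of the share (-0.18), below 5% for Twist1 (-0.0099) and Vim (-0.62), and above 5% for Snai1 (0.60), Twist2 (-0.23) and Cdh2 (-0.12). With 1 library left out Vim ran from -0.11 to 0.20, Cdh2 from -0.0624 to 0.27 and Zeb1 from -0.20 to 0.0289. The difference in mitochondrial share ran from 2.695 to 8.38 points, and passed only without TMA-ARB replicate 6 (8.38 points, exact permutation p = 0.0397). The causes were not tested. Depth limits Twist2 (194 counts in all) and Krt14 (159).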

Other observations

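Ratios within a library, on the scale of CPM per kb of exon, were computed after the values had been seen and were not tested. Cdh2 over Cdh1 was 5.32, 15.8, 32.8, 26.6 and 26.3 in TMA-ARB replicates 6 to 10, against 5.38, 6.99, 13.0, 21.4 and 19.1 in control replicates 1 to 5. N-cadherin RNA thus exceeded E-cadherin RNA in every library, least in TMA-ARB replicate 6, where Cdh1 and Epcam were highest. TMA-ARB replicates 8, 9 and 10 lay above every control for Cdh2 over Cdh1, and replicate 6 below every control. Vim over Krt18 was 22.5, 24.1, 22.6, 30.3 and 33.6 in TMA-ARB replicates 6 to 10, against 40.0, 35.3, 32.4, 25.5 and 40.2 in control replicates 1 to 5. TMA-ARB replicates 6, 7 and 8 lay below every control for this ratio.

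Snai1 over Snai2 was 1.92, 2.06, 2.51, 1.31 and 1.74 in TMA-ARB replicates 6 to 10, against 3.96, 4.45, 1.6, 1.3 and 3.24 in control replicates 1 to 5. The 3 controls with a mitochondrial share below 5% held the highest ratios. Zeb1 over Zeb2 ran from 2.60 to 4.28 in TMA-ARB libraries and from 2.47 to 4.12 in controls.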
